A study of Homo sapiens with 6 samples.

Results

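The genes described here write, erase or feed DNA methylation: the DNA methyltransferases DNMT1, DNMT3A and DNMT3B, the cofactor UHRF1, the dioxygenases TET1, TET2 and TET3, the glycosylase TDG, and the isocitrate dehydrogenases IDH1 and IDH2. These 10 genes were chosen by symbol, out of 58884 genes in the deposited table, and all 10 were among the 16859 that passed the expression filter. They were compared in HL-60, an established cell line from acute myeloid leukemia that carries mutated RAS. Lentivirus had brought a stable short hairpin RNA (shRNA) into the cells, directed at EZH2 in the one group and scrambled in the control group. Cells of both groups were selected with puromycin, which was removed 2 days before the experiment, and were then held for 24 hours in medium with 0.05% fetal bovine serum. Each group had 3 libraries of polyadenylated RNA, numbered 3, 4 and 5 for the control hairpin and 1, 3 and 4 for the EZH2 hairpin.

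As background, DNA methylation is placed on cytosines of CpG dinucleotides. DNMT3A and DNMT3B set new marks, while UHRF1 recognises hemimethylated DNA behind the replication fork and brings in DNMT1, which copies the pattern to the new strand. TET enzymes oxidise 5-methylcytosine with oxygen and 2-oxoglutarate, TDG cuts out the most oxidised bases, and IDH1 in the cytosol and IDH2 in mitochondria make 2-oxoglutarate. In myeloid cells DNMT3A, TET2, IDH1 and IDH2 are known as genes that are recurrently altered in leukemia.

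Of the 10 genes, 6 fell in cells with the EZH2 hairpin (IDH1, TET1, TET3, DNMT1, TET2 and UHRF1) and 0 rose. A gene is said to have risen or fallen where its p from edgeR's quasi-likelihood test, adjusted over all genes tested, was under 0.05. Over all genes tested, 46.7% passed that test, 22.9% lower and 23.8% higher. The falls were small. IDH1 fell to 63.3% of its control level, TET1 and TET3 to 73.4% and 73.7%, DNMT1 to 79.8%, TET2 to 87.9% and UHRF1 to 89.8%. The other 4, DNMT3A, DNMT3B, TDG and IDH2, did not pass. The median log2 fold change of the 10 genes was -0.17, against 0.01 for all genes tested. In bulk RNA, fewer cells of a kind and less RNA per cell cannot be told apart.

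EZH2, the histone methyltransferase that the hairpin targets, was at 147.6, 150.5 and 150.3 CPM, a read count scaled to library size, in control libraries 3, 4 and 5. With the EZH2 hairpin, libraries 1, 3 and 4 held 79.5, 83.2 and 77.3 CPM, all below the controls and 53.5% of their level (log2 fold change -0.90, SE 0.04, edgeR adjusted p = 3.22e-11). Total counts ranged from 39717343 to 85074624 per library, so that even the weakest of the 10 genes, TET1, had at least 183 reads in each. Markers of promyelocytes, the cells that HL-60 resembles, and of granulocyte precursors were summed as 1 list. Their sum lay between 10200 and 11020 CPM in the controls and between 10390 and 10800 CPM with the EZH2 hairpin. MPO made up most of that sum, and its log2 fold change of -0.06 did not pass against all genes but did with the higher median of chromosome 17 removed (-0.207, edgeR adjusted p = 0.00408). Of 8 promyelocyte and granulocyte precursor markers tested 4 rose, PRTN3 (2.14, from 21.8 to 96.5 CPM), AZU1 (0.69), RNASE2 (0.56) and CEBPE (0.38). The 2 that fell were MS4A3 (-0.40) and CTSG (-0.22). MS4A3 did not pass with the median of chromosome 11 removed (-0.127, edgeR adjusted p = 0.0727). ELANE was near 0 with 5 and 27 reads per group. Eosinophil markers were higher, at 5.74 to 6.20 CPM in sum in the controls against 136.3 to 153.7 CPM, with 4 of 6 tested and all 4 of those higher. CCR3 had 4 reads over the controls and 8 over the EZH2 libraries, and SIGLEC8 had 0 and 9. Summed monocyte markers were at 0.307 to 0.448 CPM in the controls against 0.964 to 1.10 CPM, T and NK cell markers at 15.1 to 17.0 against 20.3 to 20.4 CPM, and B cell markers at 16.6 to 18.7 against 35.6 to 38.7 CPM. Stromal and epithelial markers were at 0.848 to 1.57 against 2.52 to 3.31 CPM, and erythroid markers at 0 to 0.0236 CPM against 0 to 0.0201 CPM. In each of these lists 1 gene rose (CSF1R, CD247, PAX5 and KRT8), except the erythroid list, where 0 genes could be tested. CSF1R went from 0.105 to 0.870 CPM, CD247 from 2.42 to 5.17, PAX5 from 17.3 to 36.8 and KRT8 from 1.07 to 2.69. NKG7 (13.6 and 15.1 CPM), CD79A (0.524 and 0.854) and COL1A1 (0.219 and 0.178) did not pass. Too low for the test were 5 of 6 monocyte, 4 of 6 T and NK cell and 3 of 5 B cell markers. So were 4 of 6 stromal and epithelial markers and 5 of 5 erythroid ones. Among these untested markers CD14, CD3G, MS4A1, EPCAM and HBB had between 0 and 7 reads per group. VCAN, an untested monocyte marker, had 26 reads over the controls and 19 over the EZH2 libraries. For CD163 these reads were 2 and 6, for FCGR3A 1 and 1, and for MARCO 0 and 0. The part of these shifts in the results below was not tested.

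Promoters of DNMT1 and UHRF1 are shown because both genes fell and both promoters carry a motif that is common among replication genes. The windows run from 250 bases before to 50 bases after a start site and were taken from RefSeq on GRCh38.p14, 5′ to 3′ on the gene's strand. Capitals mark an E2F motif, searched on both strands as TTTCCCGC, TTTCGCGC, TTTGCCGC or TTTGGCGC. E2F factors drive genes for entry into S phase. The DNMT1 window lies at chr19:10194904-10195203 on the minus strand, and 1 of 3 UHRF1 windows at chr19:4909251-4909550 on the plus strand.
DNMT1: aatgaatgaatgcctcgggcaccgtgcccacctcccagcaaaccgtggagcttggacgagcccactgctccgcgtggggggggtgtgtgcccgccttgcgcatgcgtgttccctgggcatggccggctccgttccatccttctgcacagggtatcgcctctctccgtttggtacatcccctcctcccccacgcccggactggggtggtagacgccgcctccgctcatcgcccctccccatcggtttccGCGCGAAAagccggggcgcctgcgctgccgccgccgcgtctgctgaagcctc
UHRF1: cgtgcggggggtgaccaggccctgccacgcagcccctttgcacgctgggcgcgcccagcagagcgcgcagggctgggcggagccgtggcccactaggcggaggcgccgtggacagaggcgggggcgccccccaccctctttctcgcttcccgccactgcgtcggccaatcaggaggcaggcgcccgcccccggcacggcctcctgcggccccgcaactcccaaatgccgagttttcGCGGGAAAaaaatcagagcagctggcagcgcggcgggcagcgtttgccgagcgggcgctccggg
In DNMT1 the match began 2 bases before the start site and crossed it. In the UHRF1 window shown it began 14 bases before the start, and a second UHRF1 window held a match 160 bases before its own start. Of all 35116 promoter windows, 3.31% held a match, and of the windows of tested genes 4.98% did. The windows searched for the other 8 genes held no match, among them IDH1, TET1, TET2 and TET3, which also fell. All windows of DNMT3B, IDH1 and IDH2, like those of DNMT1 and UHRF1, lie inside the deposited coordinates of the gene. Starts at the outer ends of these genes were not searched, so a match there cannot be told. Of 20 S phase genes with a promoter in the table, 13 held a match (65%), against 6.75% of tested genes. As that list holds genes of the phase that E2F factors drive, a high share there was foreseeable. A match is a description of the letters and shows no binding. DNMT1 and UHRF1 were chosen for their matches, and a link between the motif and their falls was not tested.

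The levels per gene length were taken from the authors' FPKM, a read count scaled to depth and to gene length. Ranks, shares and ratios between genes, here and below, rest on the fixed length that the authors' values imply for each gene. Those lengths were not checked against the transcripts present in these cells. DNMT1 had the highest FPKM in the controls, 53.2 ± 1.28 (SD, n = 3 here and below), followed by UHRF1 at 48.0 ± 2.08 and IDH2 at 43.0 ± 1.30. IDH1 stood at 17.8 ± 0.0731 FPKM. TET3 and TDG had overlapping levels, 9.22 ± 0.373 and 9.07 ± 0.206 FPKM. DNMT3B, at 3.04 ± 0.12 FPKM, and TET2, at 2.66 ± 0.0943 FPKM, came next, and DNMT3A (0.909 ± 0.0255) and TET1 (0.541 ± 0.0313) were lowest. With the EZH2 hairpin the 3 leading genes no longer differed beyond their spread: DNMT1 was at 42.2 ± 1.11 FPKM, UHRF1 at 42.9 ± 0.569 and IDH2 at 42.4 ± 0.901. TET3, at 6.75 ± 0.574 FPKM, was then below TDG, at 8.47 ± 0.24, in every library.

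**Figure D1:**
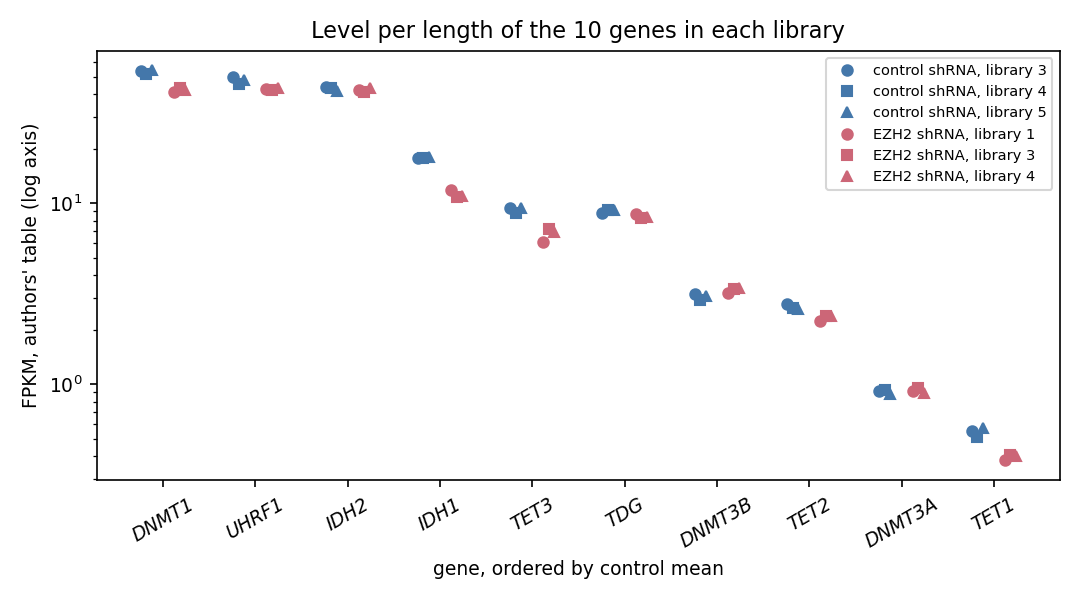
FPKM of each of the 10 genes on a log axis, ordered by control mean, with 1 point per library (blue, control shRNA; red, EZH2 shRNA). DNMT1, UHRF1 and IDH2 lie above 40 FPKM in all libraries, and DNMT3A and TET1 lie below 1 FPKM.

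Maintenance methylation rests on DNMT1 and UHRF1, which fell to different extents. DNMT1 (ENSG00000130816; GRCh38 chromosome 19, 10133345 to 10231286, minus strand) stood at 524.2, 509.0 and 534.0 CPM in the controls (libraries 3, 4, 5) against 406.1, 426.2 and 417.9 CPM with the EZH2 hairpin (libraries 1, 3, 4). Every EZH2 library was below every control library. Of all genes tested 54.9% had groups that did not overlap, 27% in this direction. DNMT1 had a log2 fold change of -0.33 (SE 0.04), with an edgeR adjusted p of 5.13e-06. UHRF1 (ENSG00000276043; chromosome 19, 4903080 to 4962154, plus strand) was at 257.2, 236.6 and 248.6 CPM in the controls against 222.6, 218.6 and 225.1 CPM. The groups did not overlap, though control library 4 lay close to the EZH2 libraries. UHRF1 had a log2 fold change of -0.16 (SE 0.04) and an edgeR adjusted p of 0.00482. Per length, UHRF1 was at 0.885 to 0.934 of the DNMT1 level in the controls and at 0.977 to 1.04 with the EZH2 hairpin, a difference that was not tested. Genes around UHRF1 were slightly higher, with a median of 0.13 over its 40 nearest expressed neighbours, and with that median removed UHRF1 was at -0.285 (edgeR adjusted p = 2.69e-05).

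S phase replication genes, a list of 24, fell in 18 cases and rose in 1 (GINS3, 0.22), with a median log2 fold change of -0.20. RRM2 (-0.82) and RRM1 (-0.61) encode ribonucleotide reductase, and MCM6 (-0.61) and MCM2 (-0.31) encode parts of the replicative helicase. RRM2 and MCM6 lie on chromosome 2 and RRM1 on chromosome 11, chromosomes whose genes were lower as a whole. With chromosome medians removed the genes RRM2, MCM6 and RRM1 were at -0.53, -0.31 and -0.34, and 19 of the 24 listed genes fell. Only 4 of the 24 were lower than DNMT1 in log2 fold change, while 17 were lower than UHRF1. DNMT1 CPM amounted to between 6.89% and 7.12% of the summed CPM of the 24 genes in the controls and between 6.39% and 7.03% with the EZH2 hairpin. For UHRF1 that share was 3.21% to 3.38% against 3.50% to 3.64%. As a share of that sum, DNMT1 overlapped between the groups and UHRF1 was higher in every EZH2 library. The sum includes RRM2, MCM6 and RRM1 and was taken without removing chromosome medians, so these shares hold the shifts of chromosomes 2 and 11 too. The part of the fall of the list in the values of DNMT1 and UHRF1 was not tested.

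Neither of the de novo enzymes passed the test. DNMT3A (ENSG00000119772; chromosome 2, 25227855 to 25342590, minus strand) was at 10.98, 11.22 and 10.63 CPM in the controls and 11.11, 11.46 and 10.86 CPM with the EZH2 hairpin. The groups overlapped and the log2 fold change was 0.02 (95% interval -0.14 to 0.18, edgeR adjusted p = 0.824). DNMT3B (ENSG00000088305; chromosome 20, 32762385 to 32809356, plus strand) was at 14.58, 13.53 and 14.23 CPM against 14.96, 15.58 and 15.83 CPM. Each EZH2 library of DNMT3B was above each control, a pattern that 27.9% of all genes tested showed, and the test was not passed (log2 fold change 0.13, 95% interval -0.01 to 0.28, edgeR adjusted p = 0.122). Per length, DNMT3B was 3.13 to 3.48 times DNMT3A in the controls and 3.50 to 3.78 times with the EZH2 hairpin. DNMT1 made up 92.9% to 93.2% of the summed FPKM of the 3 methyltransferases in the controls and 90.8% to 91.0% with the EZH2 hairpin. DNMT3L, the catalytically inactive partner of the de novo enzymes, had 0 reads in all 6 libraries, which allows at most 0.0353 to 0.0759 CPM per library (3 counts).

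**Figure D2:**
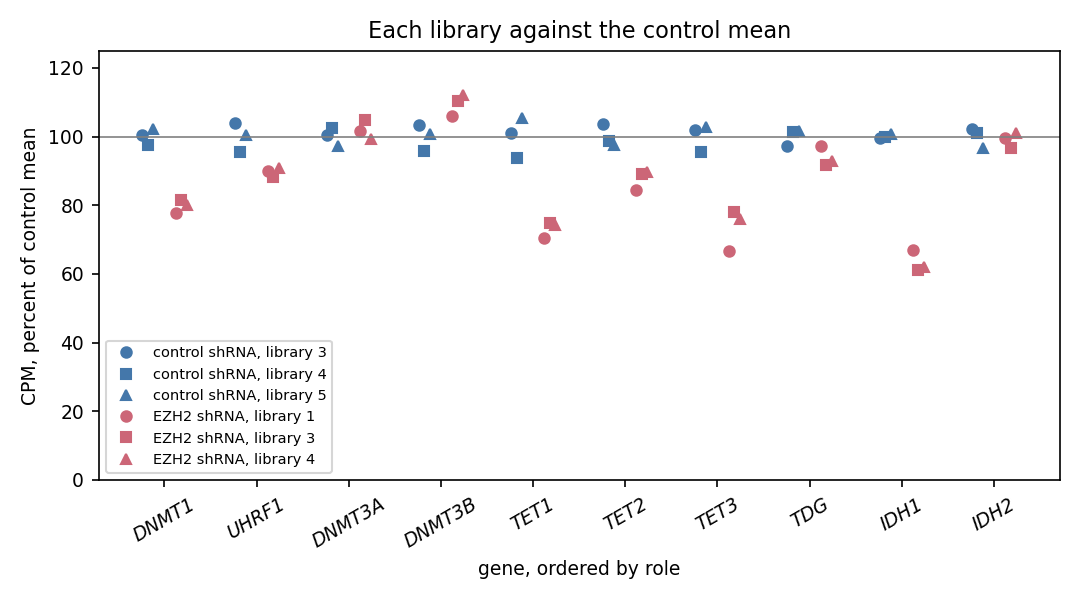
CPM of each gene in each library as a percentage of its control mean (line at 100), with control shRNA in blue and EZH2 shRNA in red. IDH1, TET1, TET3 and DNMT1 lie lowest, and DNMT3A and IDH2 overlap with the controls.

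All 3 TET genes fell. TET1 (ENSG00000138336; chromosome 10, 68560337 to 68694487, plus strand) was at 5.26, 4.89 and 5.49 CPM in the controls and 3.68, 3.90 and 3.87 CPM with the EZH2 hairpin. TET1 had a log2 fold change of -0.45 and, with the fewest reads of the 10 genes, the widest error (SE 0.11), with an edgeR adjusted p of 0.00286. TET2 (ENSG00000168769; chromosome 4, 105145875 to 105279816, plus strand), the TET gene most often altered in myeloid disease, was at 45.6, 43.4 and 42.9 CPM against 37.2, 39.2 and 39.4 CPM. TET2 had a log2 fold change of -0.19 (SE 0.05) and an edgeR adjusted p of 0.00469. TET3 (ENSG00000187605; chromosome 2, 73986404 to 74108176, plus strand), the most abundant of the family here, was at 115.4, 108.2 and 116.5 CPM against 75.5, 88.5 and 86.2 CPM. For TET3 that change was -0.44 (SE 0.05), with an edgeR adjusted p of 8.53e-06. In no TET gene did the groups overlap, and EZH2 library 1 was the lowest library for each of the 3. The summed FPKM of the family went from 12.4 ± 0.439 to 9.47 ± 0.664. TET3 held 73.7% to 74.9% of that sum in the controls and 70.0% to 72.2% with the EZH2 hairpin.

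TDG (ENSG00000139372; chromosome 12, 103965822 to 103988874, plus strand), the glycosylase that follows the TET step, was at 43.1, 45.0 and 45.1 CPM in the controls and 43.1, 40.7 and 41.2 CPM with the EZH2 hairpin. EZH2 library 1 reached the level of control library 3, so the groups overlapped. The log2 fold change was -0.09 (95% interval -0.19 to 0.01, edgeR adjusted p = 0.128). Without EZH2 library 1 the gene TDG passed (-0.125, edgeR adjusted p = 0.0406). TDGP1, a processed pseudogene, had 7.51% as many reads as TDG. How reads that match both were assigned is not stated, so the TDG counts are uncertain to an extent that was not tested.

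Of the isocitrate dehydrogenases, IDH1 fell and IDH2 did not pass the test. IDH1 (ENSG00000138413; chromosome 2, 208236227 to 208266074, minus strand), the cytosolic enzyme, was at 83.9, 84.2 and 84.9 CPM in the controls and 56.5, 51.5 and 52.3 CPM with the EZH2 hairpin. The control libraries had an SD of 0.501 CPM and all lay above all EZH2 libraries. IDH1 had a log2 fold change of -0.66 (SE 0.04) and an edgeR adjusted p of 4.44e-09. IDH2 (ENSG00000182054; chromosome 15, 90083045 to 90102504, minus strand), the mitochondrial enzyme, was at 123.7, 122.5 and 117.2 CPM against 120.7, 117.1 and 122.5 CPM. The groups of IDH2 overlapped, with a log2 fold change of -0.01 (95% interval -0.10 to 0.07, edgeR adjusted p = 0.83). The ratio of IDH2 to IDH1 per length was 2.48, 2.44 and 2.32 in the controls against 3.58, 3.82 and 3.93 with the EZH2 hairpin. That ratio was higher in every EZH2 library than in every control library, which was not tested.

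An exact permutation test over the libraries, two-sided, gave 0.1 for each of the 6 genes that fell, and 3 libraries against 3 can give no smaller p. The calls therefore rest on the model fitted across all genes. The labels do not tell whether replicate libraries stem from separate cultures, so the p-values cover only their spread, possibly a technical one.

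IDH1 is shown with its promoter because an antisense RNA, IDH1-AS1, starts close by on the other strand. Of 2 RefSeq windows of IDH1, whose starts lie 176 and 789 bases from that of IDH1-AS1, the nearer is at chr2:208255022-208255321, minus strand, on GRCh38.p14, and capitals mark the 175 bases between that start of IDH1 and the start of IDH1-AS1 in the deposited coordinates.
IDH1: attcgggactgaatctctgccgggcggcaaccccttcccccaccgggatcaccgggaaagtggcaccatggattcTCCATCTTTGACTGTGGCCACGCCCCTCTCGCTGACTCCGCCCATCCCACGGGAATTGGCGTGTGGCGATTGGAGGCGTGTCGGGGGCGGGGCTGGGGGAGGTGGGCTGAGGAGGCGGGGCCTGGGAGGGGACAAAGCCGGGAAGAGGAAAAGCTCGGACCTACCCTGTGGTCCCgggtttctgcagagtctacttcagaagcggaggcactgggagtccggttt
IDH1-AS1 had 8, 10 and 10 reads in the controls against 4, 7 and 10 reads with the EZH2 hairpin, the last in the deepest library. Scaled to depth the EZH2 libraries had 0.534 times the control level, with an interval from counting error alone of 0.288 to 0.975 (95%, exact). That ratio was not taken against the lower median of chromosome 2 (log2 fold change -0.29), where IDH1-AS1 lies. Whether IDH1-AS1 was lower than its chromosome was not tested. IDH1-AS1 was too low for the test across genes. Its reads came to 0.23% of those of IDH1, few beside the IDH1 counts. TET2-AS1 had 2 reads over the controls and 0 over the EZH2 libraries. S1PR2, a receptor gene that overlaps the upstream end of the DNMT1 annotation on the same strand, had 0.889% as many reads as DNMT1 and rose (0.46, edgeR adjusted p = 0.00652). COX20P1, a processed pseudogene inside TET1 on the same strand, had 50.5% as many reads as TET1 and did not pass the test (log2 fold change 0.14, edgeR adjusted p = 0.489).

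Of the 10 genes, DNMT3A, TET3 and IDH1 lie on chromosome 2, where the 722 expressed genes had a median log2 fold change of -0.29. Fold changes were therefore also taken against that median. IDH1 was lower than all but 10.5% of expressed chromosome 2 genes, and with the chromosome median removed the gene IDH1 was at -0.365 (edgeR adjusted p = 4.94e-06). TET3 was lower than all but 29.2%, and the gene TET3 was then at -0.15 (edgeR adjusted p = 0.0403). DNMT3A was higher than 84.9% of expressed chromosome 2 genes, and relative to the chromosome the gene DNMT3A passed as higher, at 0.32 (edgeR adjusted p = 0.00238). TET2, whose chromosome had a median of -0.07, no longer passed at -0.115 (edgeR adjusted p = 0.0673). With chromosome medians removed 44.3% of all genes passed, 20.8% lower and 23.5% higher, and 5 of the 10 genes fell (DNMT1, UHRF1, TET1, TET3 and IDH1) while 1 rose.

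Against the 40 nearest expressed neighbours of each gene, where 44.6% of all genes passed (20.9% lower, 23.7% higher), the same 6 genes fell as in the first comparison and both DNMT3A and DNMT3B rose. IDH1 lay in a stretch with a median of -0.34 and was at -0.32 relative to it (edgeR adjusted p = 2.1e-05). TET3, in a stretch at -0.22, was also at -0.22 relative to it (edgeR adjusted p = 0.00464). DNMT3A was at 0.22 (edgeR adjusted p = 0.0233), DNMT3B at 0.185 (edgeR adjusted p = 0.0368) and TET2 at -0.125 (edgeR adjusted p = 0.0468). DNMT1, UHRF1, TET1, TET3 and IDH1 fell against all 3 references. The cause of the lower median on chromosome 2 was not tested.

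**Figure D3:**
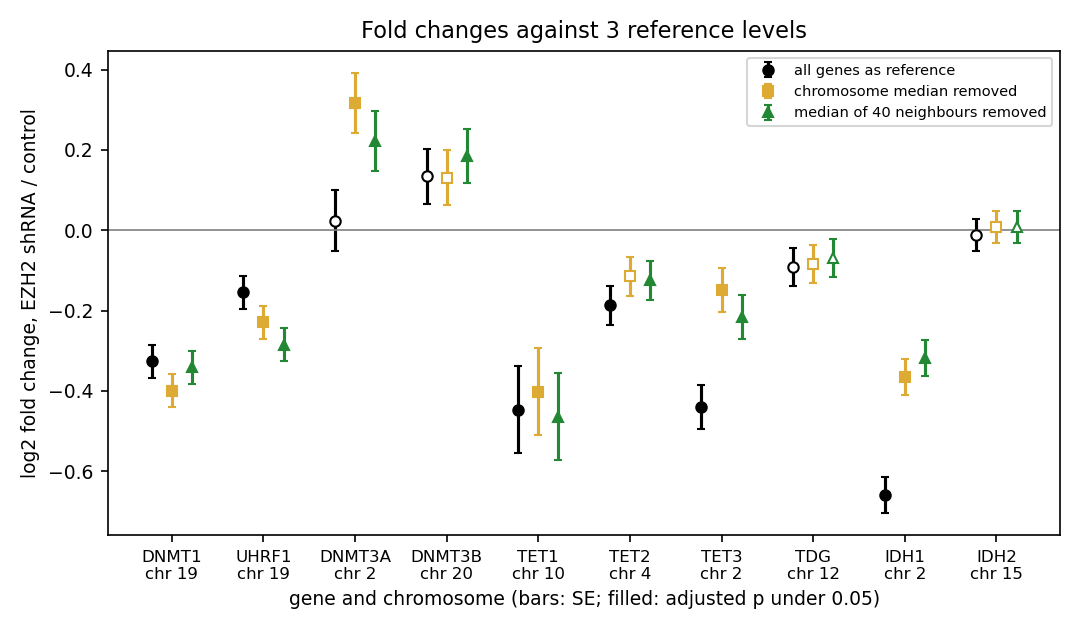
Log2 fold change of each gene, EZH2 shRNA over control, with SE bars, against all genes (black circles), its chromosome's median (yellow squares) and the median of its 40 neighbours (green triangles); filled symbols passed at an adjusted p of 0.05. The 3 chromosome 2 genes DNMT3A, TET3 and IDH1 move up against their chromosome, and the other genes move by less.

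Partners and guides of the methyltransferases held 5 rises and 9 falls among 22 tested, with a median of -0.06. LIG1, the replicative DNA ligase whose methylated form binds UHRF1, fell from 230.5 to 129.9 CPM (-0.83). QSER1, a protein that shields promoters from de novo methylation, was at -0.62, and CDCA7, which targets the remodeler HELLS, at -0.47. NSD2, which makes the H3K36 dimethylation that DNMT3A reads, was at -0.33. The 5 that rose were NPM2 (1.01), TRIM28 (0.24), MORC2 (0.22), GLYR1 (0.14) and USP7 (0.14). QSER1 and CDCA7 lie on chromosomes 11 and 2. With chromosome medians removed QSER1 was at -0.35 and CDCA7 at -0.17, and with neighbour medians removed the gene CDCA7 did not pass (-0.09, edgeR adjusted p = 0.0689). Of the methyl-CpG readers and their relatives, not all of which bind methylated CpG, 2 of 9 rose and 0 fell, with a median of -0.03. Over all genes tested 23.8% rose and 22.9% fell. ZBTB33, also called Kaiso, was at 0.26. The gene MBD3, at 0.13, lost its call with chromosome medians removed (0.06, edgeR adjusted p = 0.254) and without EZH2 library 3 (0.09, edgeR adjusted p = 0.0798).

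TET partners rose in 4 and fell in 5 of 14 cases, with a median of -0.07. CXXC5, a CpG-binding relative of the TET CXXC domain, rose from 17.8 to 34.4 CPM (0.94), and WT1, which recruits TET2 to DNA, was at 0.36 and, with the lower median of chromosome 11 removed, at 0.63. DDB1 and CUL4B, parts of the ubiquitin ligase that modifies TET proteins, were at -0.20 and -0.29. PROSER1 and CUL4A were at 0.19 and 0.14 against all genes, but both lie on chromosome 13, whose median was 0.199, and with it removed they were at -0.007 and -0.062 and did not pass (edgeR adjusted p = 0.908 and 0.19). DCAF1, RBX1 and VHL were at -0.16, -0.15 and -0.16, and relative to its neighbours the gene VHL did not pass (-0.111, edgeR adjusted p = 0.0835). DDB1 lies on chromosome 11, and with chromosome medians removed the gene DDB1 was at 0.07 and did not pass (edgeR adjusted p = 0.2). With chromosome medians removed 3 of the 14 TET partners rose and 4 fell. Base excision genes, not all of which act after the TET step, rose in 4 and fell in 4 of 16 cases, with a median of -0.02. The glycosylase genes NEIL3 and OGG1 fell by 0.98 and 0.72 on the log2 scale, the scaffold gene XRCC1 was at -0.22, and NEIL2 rose by 0.36. The stress genes GADD45A and GADD45B were at 0.32 and -0.38, and UNG and APEX2 at 0.11 and 0.12. Of 18 alternative ways of processing, UNG did not pass in 12 and APEX2 in 6, DESeq2 among them (adjusted p = 0.0725 and 0.0826).

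Genes of 2-oxoglutarate and 2-hydroxyglutarate metabolism rose in 5 and fell in 8 of 22 cases, with a median of -0.04. IDH3A and IDH3B, subunits of the NAD-dependent isocitrate dehydrogenase of mitochondria, both rose by 0.37, IDH3B by 0.13 relative to its neighbours. SDHA and ACO1 were at 0.24 and 0.18. SDHA was at 0 relative to its neighbours (edgeR adjusted p = 0.998), and ACO1 did not pass with DESeq2 (0.172, adjusted p = 0.0782). Of 18 alternatives, SDHA did not pass in 6 and ACO1 in 9. Glutamate dehydrogenase genes GLUD1 and GLUD2, which also yield 2-oxoglutarate, were at -0.48 and -0.57, though GLUD2 is a near copy of GLUD1 and may share its reads. D2HGDH, a 2-hydroxyglutarate dehydrogenase on chromosome 2, was at -0.13 against all genes (edgeR adjusted p = 0.0356), and with the chromosome median removed its direction turned (0.159, edgeR adjusted p = 0.0154). Supply of S-adenosylmethionine, the methyl donor, held 4 rises and 5 falls among 15 genes, with a median of -0.09. SHMT2 of the folate cycle was at -0.32, MAT2B was at -0.24, and MTRR was at 0.265. MTAP, MTR and AHCYL1 were at 0.18, 0.13 and 0.11, and MAT2A and MTHFD1 at -0.19 and -0.13. With chromosome medians removed 2 of the 15 genes rose and 5 fell. MTR and AHCYL1 then did not pass (edgeR adjusted p = 0.0528 and 0.0625), and MAT2A, on chromosome 2, was at 0.106 (edgeR adjusted p = 0.0799). Over all 18 alternatives, MTR did not pass in 10 and AHCYL1 in 9. Relative to its neighbours the gene MTRR did not pass (0.09, edgeR adjusted p = 0.138). These lists were described by counts and medians alone.

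**Figure D4:**
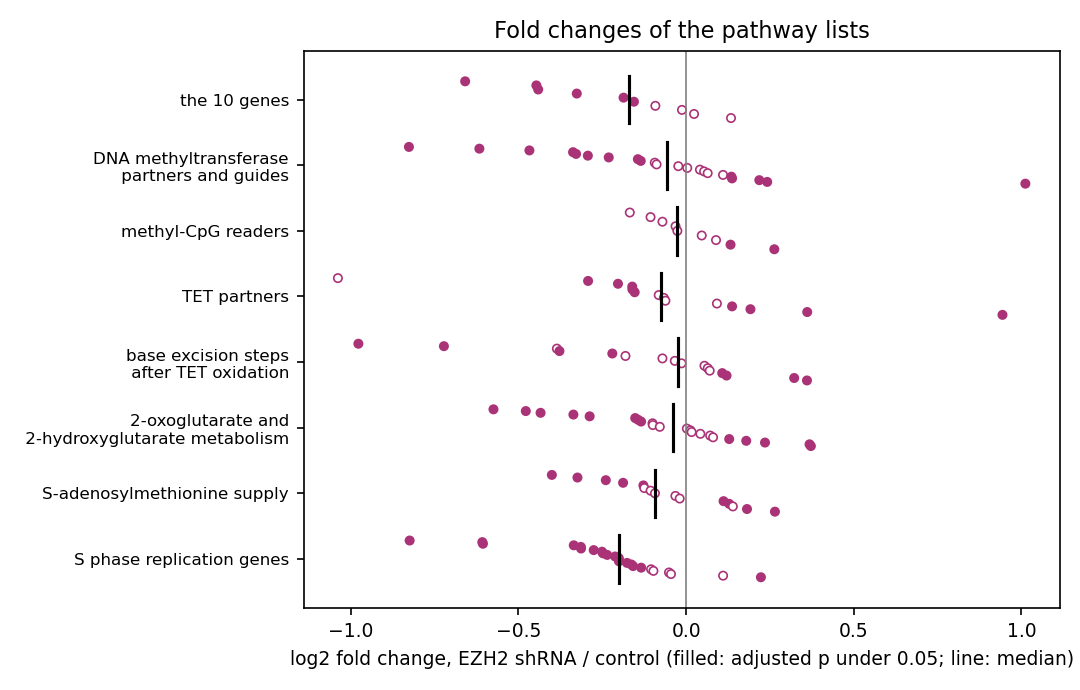
Log2 fold change, EZH2 shRNA over control, of every tested gene of the 10 described here and of 7 pathway lists; filled points passed at an adjusted p of 0.05 and black lines are medians. S phase replication genes have the lowest median, -0.20. The list of methyl-CpG readers and relatives holds 2 rises and 0 falls among 9, where 23.8% of all genes tested rose and 22.9% fell. A difference of this short list from all genes was not tested.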

How the data were processed

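Polyadenylated RNA of 6 HL-60 libraries was sequenced as single reads of 50 bases from a stranded kit, per the labels' protocols. The authors deposited raw counts per gene, without normalization, and FPKM values. GRCh38, DESeq2 1.24.0, STAR 2.5.2b, R 3.6.1 and Picard 2.18.24 stand in the submitters' processing notes, with no role. How reads were counted, and whether by strand, is not stated there. For all 25514 genes checked, the deposited FPKM were the counts divided by size factor and a fixed number per gene, within 0.001, so they are no second measurement.

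Computed here were CPM with TMM factors, and, in R 4.3.3, edgeR 4.0.16 with its robust quasi-likelihood fit on group alone. filterByExpr kept 16859 genes (of 29060 with a count), over which p-values were adjusted by Benjamini-Hochberg, with a threshold of 0.05. SE come from the fold change and F statistic, and 95% intervals from SE and the test's degrees of freedom. Chromosome and neighbour medians used genes over 2 log2 CPM and entered the fit as offsets. The interval of IDH1-AS1 and the floors of 3 counts hold counting error alone. Within groups every pair of libraries differed by more than sampling noise (chi-square per degree of freedom 3.11 to 17.4). Alternatives were DESeq2 1.42.0, limma 3.58.1 on log2 FPKM, other scalings and filters, a replicate block and leaving out each library.

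The 10 genes, the lists and the tests were chosen with earlier results of these data known. Named were the 10 genes, EZH2, overlapping genes and up to 4 called genes with the smallest p per pathway list. Other list genes, TDGP1 and the marker genes were named outside that rule, after their values were seen. Some list genes that the rule or the counts include are not reported here by name.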

Additional observations from a re-analysis of the deposited data

How the results depend on the processing

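Across 18 alternatives DNMT1, UHRF1, TET3 and IDH1 kept their fall and their call. The count of the 10 genes that fell was 6 to 7 when single libraries were left out, 4 on unfiltered log2(FPKM + 1) and 5 with chromosome medians removed. The count that rose was 1 with chromosome medians and 2 with neighbour medians removed, and 0 otherwise. Of all genes tested, 7866 passed, 6799 to 7935 without single libraries and 5906 on unfiltered log2(FPKM + 1). On that last scale the gene TET1 (-0.145, adjusted p = 0.0581) and the gene TET2 (-0.139, adjusted p = 0.0573) did not pass. With the filter both passed at those fold changes (adjusted p = 0.0145 and 0.0344). The gene IDH2 was at 0.009 with upper-quartile scaling, 0.007 and 0.008 with chromosome and neighbour medians removed, and -0.037 to 0.001 without single libraries. The gene DNMT3A was at -0.012 to 0.044 without single libraries, with the negative value without EZH2 library 3. Some genes of the lists also turned, called ones among them. With chromosome and then neighbour medians removed DDB1 was at 0.066 and 0.094, PROSER1 at -0.007 and -0.118, CUL4A at -0.062 and -0.128, D2HGDH at 0.159 and 0.132, and MAT2A at 0.106 and 0.104. MBD3 was at -0.033 with neighbour medians removed. The cause was not tested. With the title number as a replicate block 7721 genes passed and 6 of the 10 fell. In that fit control library 5 and EZH2 library 1 had no partner. The group difference therefore rested on libraries 3 and 4 of each group alone. S1PR2, ACO1, D2HGDH, UNG and GADD45A lost their calls there. The labels do not say that the numbers pair libraries. Deviations of the same-numbered pairs correlated at 0.113 and 0.118, and those of the other pairs at -0.145 to 0.054. Read number limits TET1 most, with 183 to 329 reads per library.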

Other observations

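Of 21 germline genes that are classically silenced by promoter methylation, 18 were too low for the test in these libraries. Among the 21, 12 had no read in any library, among them DAZL, DDX4, BRDT and MAGEA1, and 3 passed the expression filter. SOHLH2, a germ cell transcription factor, rose by 1.08 on the log2 scale, from 1.84 to 3.87 CPM (SE 0.15, with an edgeR adjusted p of 1.34e-05), and TEX19, a germline regulator of retrotransposons, from 0.638 to 1.15 CPM (0.85, edgeR adjusted p = 0.00619). On log2(FPKM + 1) the 2 were at 0.47 and 0.26. The gene TEX19, on chromosome 17, lost its call relative to its neighbours (0.47, edgeR adjusted p = 0.115). MAGEB2, a cancer-testis gene, was at 47.4 and 49.6 CPM and did not pass (edgeR adjusted p = 0.26). Among the rest, SYCP3 had 2 reads over the controls and 14 over the EZH2 libraries, TDRD6 had 0 and 10, MAEL 3 and 9, TKTL1 0 and 5, STK31 0 and 1, and CTAG2 3 and 0. These were too few for the test, and the EZH2 libraries held more reads in total. DNA methylation itself was not measured here.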
